A study of Mus musculus with 165 samples.

Results

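The data describe a single interval in the macrophage differentiation of PUER cells, the step from 8h to 12h after 4-hydroxy-tamoxifen (OHT) was added in IL3. PUER cells are a Spi1-/- mouse myeloid progenitor line in which PU.1, the product of Spi1, was restored in a form joined to the hormone-binding part of the estrogen receptor, which OHT activates. The labels call them bone marrow-derived progenitors. The members were chosen by title alone, as the 3 libraries of IL3-OHT 8h and the 3 of IL3-OHT 12h, 2 of the 56 groups that make up the series, most of them of 3 libraries. Both groups grew in 5 ng/ml IL3 with 200 nM OHT and differ in the time since OHT was added. The 6 libraries of GCSF-OHT 8h and 12h served for comparison. These cells had 48 h of 10 ng/ml GCSF in place of IL3 before 100 nM OHT was added. Cytokine, OHT dose and pre-treatment thus differ together between IL3 and GCSF and cannot be told apart. IL3-OHT 4h and 16h, which bracket the step, gave another 6 libraries. It is a single cell line that lacks endogenous PU.1 and carries the fusion in every sample compared. No culture without OHT at 8h or 12h was analysed here, so time in culture and time since OHT cannot be told apart. Cells of each time point were grown in a plate of their own, so plate and time cannot be told apart either. The replicates are wells, and p-values measure the spread between wells of a group, pooled over all groups in the fit.

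PU.1 is an ETS-family transcription factor that myeloid progenitors need in order to become macrophages or neutrophils, and IL3 is a cytokine that keeps such progenitors alive and dividing. Dividing progenitors invest in ribosome biogenesis, the making of new ribosomes in the nucleolus, where RNA polymerase I transcribes ribosomal RNA and a large set of processing factors trims and assembles it. Glycolysis, the breakdown of glucose to pyruvate and lactate, is the main energy route of proliferating and of inflammatory myeloid cells.

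Messenger RNA was measured by RNA-Seq and deposited as normalized counts, reads per gene divided by a size factor of the library. The 6 libraries of the step held 19752298 to 24571711 reads on genes, and 16309 to 16863 genes had at least 1 read. A count of 3 reads, taken as the smallest that can be told from 0, came to 2.65 to 3.21 in normalized counts, a floor set by counting error alone. The share of reads on mitochondrially encoded transcripts was 1.36% to 1.47% at 8h and 1.36% to 1.46% at 12h. Kit, the stem cell factor receptor of progenitors, was at 3523 to 3847 normalized counts at 8h, while Cd34 and Meis1, progenitor genes of the same list, were listed at 0. Csf1r, the M-CSF receptor of macrophages, was at 3.21 to 8.57 at 8h and 2.12 to 6.17 at 12h, next to the floor. Markers of mast cells and basophils other than Kit were sparse (6 of 18 listed at 0), and eosinophil markers summed to at most 6.36 normalized counts in any of the 6 libraries. Spi1 itself was at 8939, 8928 and 8902 at 8h and 7732, 7572 and 7601 at 12h, lower at 12h in each library without passing the fold-change threshold (log2 fold change -0.22). Reads of the fusion and of the mutated locus cannot be told apart in gene totals. Among the GCSF libraries, GCSF-OHT 12h replicate 3 stood apart from its group, with lower counts of Bnip3 and of many glycolytic genes and higher counts of ribosome biogenesis genes, and GCSF-OHT 8h replicate 1 had the highest counts of Bnip3 and many glycolytic genes in its own. The main counts that use them are also given without them.

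Between 8h and 12h, transcripts for glucose uptake and glycolysis rose while transcripts for ribosome biogenesis fell. Of 17414 genes tested, 663 (3.81%) were higher at 12h and 436 (2.5%) were lower, at a Benjamini-Hochberg adjusted p under 0.05 by limma and a log2 fold change past 0.58, a change of about 50%. These shares over all genes are the background for the counts of each gene list below. The genes called higher had a median log2 fold change of 0.83, the genes called lower -0.83, and all genes tested -0.01. Of the 663, 87 moved by more than 1.5 on the log2 scale and 466 had a mean of at least 100 normalized counts at 8h or 12h. Of the 436, 81 moved by more than 1.5 and 270 had such a mean. In a bulk culture, fewer cells of a type and less RNA per cell cannot be told apart, and normalized counts are relative, since the table holds 0 entries of the spike-in standards.

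**Figure D1:**
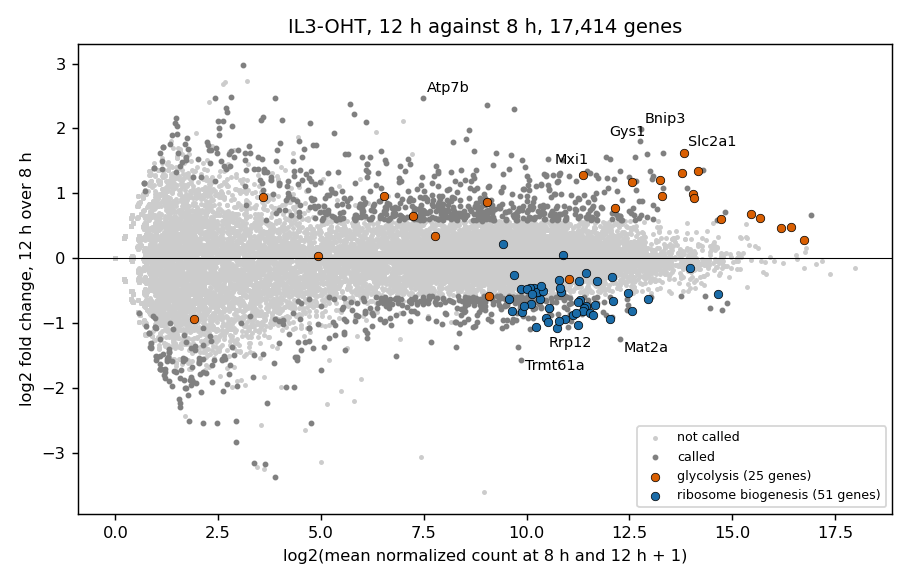
Log2 fold change from IL3-OHT 8h to 12h (vertical axis) against mean log2 normalized count (horizontal axis) for the 17414 genes tested, each point a gene, with glycolysis and ribosome biogenesis genes coloured. Most of the 25 glycolysis genes lie above 0 (median 0.78) and most of the 51 ribosome biogenesis genes below it (median -0.63).

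The ribosome biogenesis list fell most broadly. Of its 51 genes, 28 were lower at 12h and 0 were higher, beside 2.5% lower and 3.81% higher over all genes. The median of the list was -0.63, its values ran from -1.08 to 0.21, and 49 of 51 were below 0. Rrp12 (ENSMUSG00000035049, chr19:41862851-41896173, minus strand), needed for the export and maturation of ribosomal subunits, was at 2336, 2314 and 2335 normalized counts in the 3 libraries of 8h and 1079, 1081 and 1156 in those of 12h. The 2 groups did not overlap, and the libraries of each time lay close together (Rrp12 log2 fold change -1.08, SE 0.08, adjusted p = 8.53e-24, limma, Benjamini-Hochberg).

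The genes that fell act at successive stages of ribosome assembly. Polr1b, the second-largest subunit of RNA polymerase I, went from 1945, 2016 and 1927 at 8h to 921, 1030.2 and 1033 at 12h, with no overlap (log2 fold change -0.98). Polr1a, the largest subunit of the same enzyme, fell by 0.64 on the log2 scale. Polr1c, a subunit that RNA polymerase I shares with RNA polymerase III, was at 596, 677 and 645 and then 758, 722 and 744, a log2 fold change of 0.21 that did not pass the fold-change threshold and had the opposite sign.

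Nop56 (ENSMUSG00000027405, chr2:130274430-130279313, plus strand), a core protein of the box C/D particles that guide methylation of ribosomal RNA, was at 5680.0, 5329.5 and 5518 at 8h and at 2752, 2938 and 2914 at 12h. All 12h libraries were below all 8h libraries, 1.92-fold on the means (log2 fold change -0.94, SE 0.07, adjusted p = 4.8e-24, limma). Nop58, its partner in the same particle, fell by 0.74 on the log2 scale, whereas the methyltransferase of the particle, Fbl, was at 4700.1, 4744 and 4773 and 3979.8, 3859 and 3735, lower in each library but short of the fold-change threshold (log2 fold change -0.30). Dkc1, the pseudouridine synthase of the box H/ACA particles, fell by 0.88, and its small partner Nop10 overlapped between the times (1803, 1978 and 1802 against 1974, 1975 and 1830.3).

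Processing factors of the small subunit fell with them. Tsr1, which acts late in maturation of the small subunit, went from 3309, 3169 and 3227 to 1543, 1709 and 1527 (log2 fold change -1.02). Pwp2, a scaffold of the early processome, went from 2357, 2288 and 2373 to 1090.2, 1304 and 1203 (log2 fold change -0.97). On the large subunit side, Grwd1, a chaperone of ribosome assembly, went from 1574, 1679 and 1617 to 746, 774 and 812 (log2 fold change -1.06). None of these 3 genes overlapped between 8h and 12h. The most abundant nucleolar proteins moved less. Ncl was at 30078, 31554 and 29439 and then 19853, 21139 and 21454 (log2 fold change -0.54, just inside the threshold), and Npm1 at 16895, 17017 and 16497 and then 14866, 15118 and 15362 (log2 fold change -0.15, adjusted p = 0.127 by limma). Summed over the list, ribosome biogenesis took 0.856%, 0.851% and 0.826% of the reads at 8h and 0.542%, 0.574% and 0.560% at 12h, with no overlap.

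Transcripts of the ribosome's own proteins fell far less. Of 81 cytosolic ribosomal protein genes tested, 0 were higher and 1 was lower (median -0.07), with 66 below 0. The list took 6.11% to 6.21% of the reads at 8h and 5.74% to 5.93% at 12h, with no overlap. The gene called lower was Rpl12, at 2068, 2026 and 2002 and then 1326, 1295 and 1389 (log2 fold change -0.60), a gene with an antisense neighbour and with processed copies elsewhere in the genome. Of 78 mitochondrial ribosomal protein genes, 2 were lower, Mrps6 (-0.64) and Mrps18b (-0.59), and 0 higher (median -0.12), with 55 below 0. Their share of the reads was 0.295% to 0.305% at 8h and 0.269% to 0.276% at 12h. Of the 20 aminoacyl-tRNA synthetases, which load amino acids onto tRNA, 0 passed in either direction, with a median of -0.27 and 16 below 0. Among all genes with 100 or more normalized counts and no overlap, the one that fell furthest was Trmt61a (ENSMUSG00000060950), the catalytic subunit of a tRNA methyltransferase. It was at 1402, 1471 and 1311 at 8h and 449.8, 478 and 479 at 12h, 2.97-fold lower on the means (log2 fold change -1.57, SE 0.12, adjusted p = 4.36e-21, limma).

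**Figure D2:**
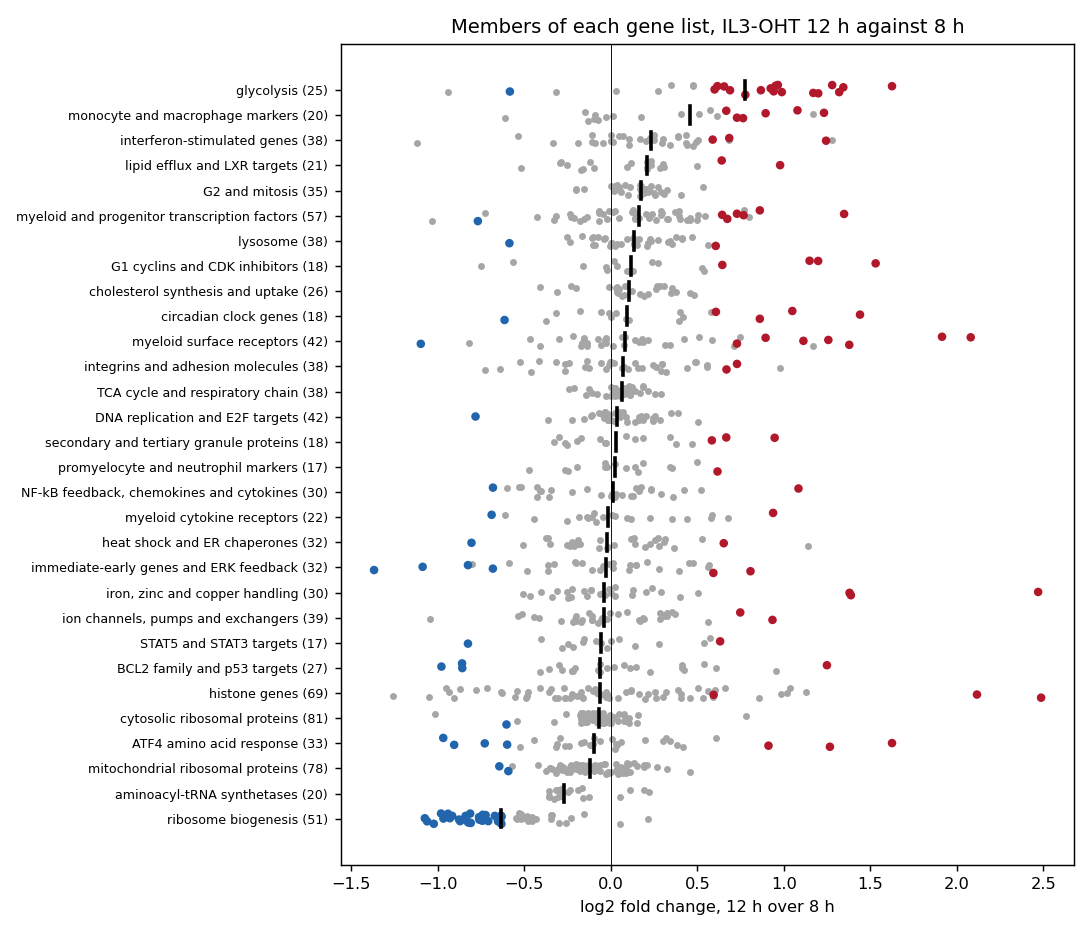
Log2 fold change from IL3-OHT 8h to 12h for each tested member of 30 gene lists, those of the 38 main lists with at least 15 tested members, each point a gene and each row a list, with the list medians marked. Of these 30, glycolysis lies furthest to the right (17 of 25 called higher) and ribosome biogenesis furthest to the left (28 of 51 called lower), and the 5 lists written down after the values were seen are not drawn.

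Glycolysis rose as a list. Of its 25 genes, 17 were higher at 12h and 1 was lower, beside 3.81% and 2.5% over all genes, and the median was 0.78. Summed over the list, it took 1.80%, 1.96% and 2.02% of the reads at 8h and 2.99%, 2.78% and 2.92% at 12h. Slc2a1 (ENSMUSG00000028645, chr4:119108711-119137983, plus strand), the glucose transporter GLUT1 that admits glucose to the cell, was at 5959, 7620.1 and 7910.4 normalized counts at 8h and 24156, 21098 and 20672 at 12h. The lowest 12h library was well above the highest 8h library, and the means differed 3.08-fold (log2 fold change 1.62, SE 0.16, adjusted p = 2.02e-15, limma).

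The rise ran along the pathway. Hk1, the hexokinase that traps glucose in the cell, went from 3429, 3731 and 4102 to 8858, 7912 and 8529 (log2 fold change 1.17), and Hk2 and Hk3 rose by 0.95 and 0.78 on the log2 scale. Pfkl, the liver-type phosphofructokinase of the committed step, went from 6403, 8571 and 9135 to 20168, 18394 and 21015 (1.32). The other isoforms of this enzyme rose too, Pfkp by 1.20 and Pfkm by 0.87. Tpi1, which interconverts the triose phosphates, went from 8965, 10208 and 12369.6 to 27905, 25138 and 26372 (1.34). Each of these genes was higher in all 12h libraries than in any 8h library. Within 8h, replicate 1 had the lowest counts of Slc2a1, Hk1, Pfkl and Tpi1, and within 12h replicate 1 had the highest counts of Slc2a1, Hk1 and Tpi1.

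At the end of the pathway, Ldha, which turns pyruvate into lactate, went from 10617, 12056 and 12988 to 23375, 21008 and 23110.4 (0.92), and Pdk1, a kinase that keeps pyruvate out of the mitochondrial pyruvate dehydrogenase, from 1464, 1441 and 1716 to 3892, 3600.3 and 3697 (1.28). Neither overlapped between the times. Pgk1, at 0.60, lay just past the fold-change threshold. Members that did not pass included Gapdh, the most abundant of those given here (93636, 103160.0 and 102313 against 127167, 115172 and 119178, log2 fold change 0.27), and the lactate carrier Slc16a1 (2269, 2477 and 2229 against 1867, 1898 and 1821, log2 fold change -0.32). The single member called lower was Pfkfb3, which makes the activator of phosphofructokinase, at 678, 655 and 631 and then 428, 466 and 418. Its log2 fold change of -0.58 sat at the threshold. Of the 38 genes of the TCA cycle and respiratory chain, 0 passed in either direction (median 0.07). Gapdh, Ldha, Tpi1 and Pgk1 have processed pseudogenes, among which shared reads could be split.

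The promoters of genes that rose and fell can be compared by sequence. The windows below run from 250 to 31 bases before the annotated start in RefSeq's GRCm38.p6 annotation, 220 bases each, printed 5′ to 3′ on the gene's strand. Capitals mark ACGTG, the core shared by hypoxia response elements and by the E-box, on either strand, and CACGTG, the E-box that MYC and MXI1 with their partner MAX bind, which contains ACGTG. The motifs and the genes shown were chosen after the values were seen. Bnip3, Slc2a1, Ldha and Pgk1 are shown as genes that rose whose windows hold a match, and Tpi1 as one that rose whose window holds none. Nop2, a nucleolar RNA methyltransferase that fell by 0.84 on the log2 scale, is shown as the only one of the ribosome biogenesis genes that fell with CACGTG, and Nop56 as one of the majority with no match.
Bnip3 (chr7:138909537-138909756, minus strand): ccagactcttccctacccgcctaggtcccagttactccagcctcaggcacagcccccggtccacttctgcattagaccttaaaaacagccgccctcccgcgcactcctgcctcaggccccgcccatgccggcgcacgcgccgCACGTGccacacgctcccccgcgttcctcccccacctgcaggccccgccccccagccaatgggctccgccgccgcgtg
Slc2a1 (chr4:119108495-119108714, plus strand): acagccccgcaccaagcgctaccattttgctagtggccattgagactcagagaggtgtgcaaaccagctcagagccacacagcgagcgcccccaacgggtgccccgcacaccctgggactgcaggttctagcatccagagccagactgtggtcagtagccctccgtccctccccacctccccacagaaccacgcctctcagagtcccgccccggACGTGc
Ldha (chr7:46845554-46845773, plus strand): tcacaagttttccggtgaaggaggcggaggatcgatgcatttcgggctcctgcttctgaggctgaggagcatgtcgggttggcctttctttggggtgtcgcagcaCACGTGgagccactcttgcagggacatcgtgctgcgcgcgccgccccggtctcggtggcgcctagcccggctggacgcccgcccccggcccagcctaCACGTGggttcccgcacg
Pgk1 (chrX:106186850-106187069, plus strand): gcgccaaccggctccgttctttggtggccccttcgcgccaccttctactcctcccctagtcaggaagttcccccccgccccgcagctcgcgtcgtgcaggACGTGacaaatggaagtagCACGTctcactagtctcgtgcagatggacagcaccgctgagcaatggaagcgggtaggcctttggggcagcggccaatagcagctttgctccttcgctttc
Tpi1 (chr6:124814189-124814408, minus strand): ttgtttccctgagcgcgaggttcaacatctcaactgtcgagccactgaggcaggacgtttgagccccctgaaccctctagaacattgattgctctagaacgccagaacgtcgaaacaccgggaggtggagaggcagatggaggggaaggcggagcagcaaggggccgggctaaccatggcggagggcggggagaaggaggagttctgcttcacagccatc
Nop2 (chr6:125131633-125131852, plus strand): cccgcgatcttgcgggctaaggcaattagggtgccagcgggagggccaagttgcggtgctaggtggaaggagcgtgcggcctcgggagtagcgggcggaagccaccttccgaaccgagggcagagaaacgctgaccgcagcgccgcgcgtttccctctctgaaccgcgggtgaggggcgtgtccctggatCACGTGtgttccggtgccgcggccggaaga
Nop56 (chr2:130274162-130274381, plus strand): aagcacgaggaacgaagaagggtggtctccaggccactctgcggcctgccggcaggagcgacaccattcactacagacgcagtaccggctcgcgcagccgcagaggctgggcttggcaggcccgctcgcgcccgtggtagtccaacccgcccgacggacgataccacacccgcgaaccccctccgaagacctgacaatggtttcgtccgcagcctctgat
Over all 32851 windows, 14.4% held ACGTG and 5.01% held CACGTG, and over the 14706 windows of the genes tested 17.5% and 6.32% did. Among windows of the genes higher at 12h the shares were 22.2% and 7.03%, and among those of the genes lower at 12h 15.8% and 7.51%. Of the 17 glycolysis genes that rose, 8 held ACGTG in at least 1 of their windows (47.1%, beside 20.5% of the genes tested), which was 10 of 26 windows (38.5%), and 2 of 26 windows held CACGTG (7.69%). Ldha has a second window, not printed, with no match, and the windows of Tpi1, Pfkl, Pdk1, Pfkp and Hk1 were among those that held neither motif. Of the 28 ribosome biogenesis genes that fell, 25 had a window, and 2 of their 27 windows held ACGTG (7.41%) and 1 held CACGTG (3.7%). GAGGAAGT, an ETS motif of the kind that PU.1 binds, was searched on both strands as well and was in 2.04% of all windows and 2.07% of those of the genes tested. It was in 2.97% of windows of the genes higher at 12h and 2.07% of those of the genes lower. In the 2 lists it was in 0 of the 26 glycolysis windows and 1 of the 27 ribosome biogenesis windows. A match describes these letters in this window and nothing more.

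Bnip3, a receptor that marks mitochondria for removal, was among the genes that rose furthest. Its mean in IL3 was 11392 normalized counts in undifferentiated cells, 719 at 4h and 11146 at 12h, so the rise brought it back near its starting level. Bnip3 (ENSMUSG00000078566, chr7:138890836-138909519, minus strand) was at 2172, 2985 and 3405 normalized counts at 8h and 11642, 10329.8 and 11466 at 12h, and every 12h library exceeded every 8h library by a wide margin (3.97-fold on the means, log2 fold change 1.99, SE 0.18, adjusted p = 8.06e-18, limma). Gys1, the glycogen synthase that stores glucose as glycogen, rose alongside from 2572, 3237 and 3499.6 to 11819, 9951 and 10492 (log2 fold change 1.80, SE 0.13, adjusted p = 1.46e-22, limma). Bnip3 and Gys1 each have an annotated neighbour on the opposite strand (Gm18258 and Ruvbl2), and the sources used here do not say whether the counting used strand. Other genes named here that overlap a neighbour are Rgs11, Abhd18, Aldh1l2, Tsr1, Nop56, Rpl12, Mrps6, Ccnd3, Tpi1, Pfkp, Gapdh, Itgam, Fosl1, Parp9, Mxi1, Cx3cr1, Nab2 and Csf1r, and their values are uncertain to that extent.

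The largest rise among genes with a mean of at least 100 normalized counts and no overlap belonged to Atp7b, a copper-transporting ATPase, at 45.1, 55.7 and 59.03 and then 339.6, 264 and 294 (log2 fold change 2.47). Mgarp, a mitochondrial protein, went from 127.9, 216.3 and 176 to 951, 769 and 921 (2.36), and Smtnl2, a smoothelin-like protein, from 172.1, 349 and 346 to 1509, 1228 and 1348 (2.30). In all 3, the groups were separate, and 8h replicate 1 was the lowest of the 8h libraries. Bcar1, an adaptor of integrin signalling, rose by 1.97, Rgs11, a regulator of G-protein signalling, by 1.84, and Tnfrsf14, the herpesvirus entry mediator of the TNF receptor family, by 1.79. Tnfrsf14 varied little between the wells of a time, at 125.1, 134.9 and 132 against 445, 475 and 444. The 12 genes named for the largest rise were completed by Pgbd1 (2.10), a piggyBac-derived gene, Abhd18 (1.66), Dixdc1 (1.65) and Aldh1l2 (1.62), a mitochondrial enzyme of folate metabolism.

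**Figure D3:**
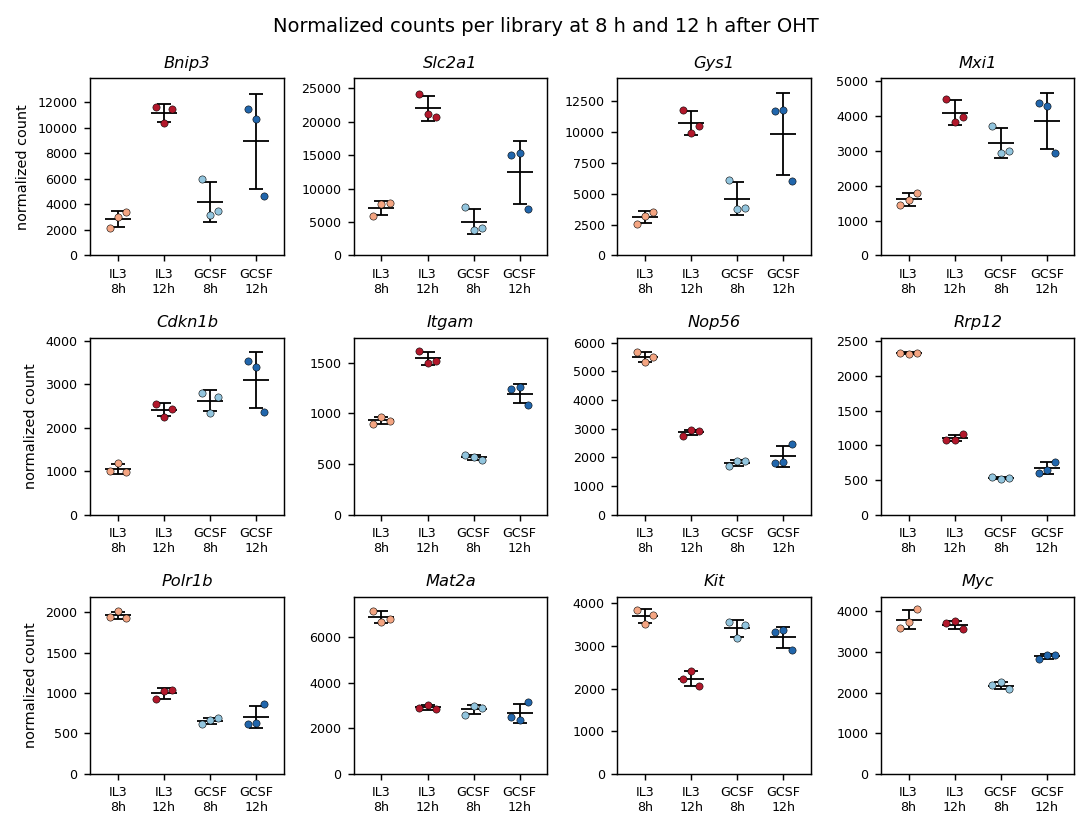
Normalized counts (vertical axes, from 0) of 12 genes in each of the 3 libraries of IL3-OHT 8h, IL3-OHT 12h, GCSF-OHT 8h and GCSF-OHT 12h, with the mean and SD of each group. In IL3 the 8h and 12h points are separate for every gene shown except Myc, whereas in GCSF the ribosome biogenesis genes Nop56 and Polr1b overlap between the times and a single 12h library lies low for Bnip3, Slc2a1 and Gys1.

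Among the genes that fell furthest, Mat2a (ENSMUSG00000053907, chr6:72432799-72439558, minus strand), which makes the methyl donor S-adenosylmethionine, was at 7163, 6683 and 6800.3 at 8h and 2902, 3021 and 2823 at 12h, 2.36-fold lower on the means with no overlap (log2 fold change -1.24, SE 0.08, adjusted p = 2.1e-27, limma). Fbp1, which reverses the phosphofructokinase step, went from 156, 176 and 170.4 to 72.3, 46.8 and 58.3 (-1.50). Arrdc4, an arrestin-domain protein that restrains glucose uptake, went from 2859, 2739 and 2712 to 1212, 1308 and 1465 (-1.06). All 3 were lower in each 12h library than in any 8h library. Egr1, a zinc-finger factor induced by growth signals and by PU.1, went from 1472, 1451 and 1491 to 737, 623 and 721 (-1.09). Sim2, a transcription factor, fell by 1.29 and Nkain1, a membrane protein, by 1.15 on the log2 scale. The serine protease inhibitors Serpinb9f, Serpinb9g and Serpinb9e (-1.36, -1.36 and -1.08) are near-identical copies, and how reads were split among them is uncertain.

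The ATF4 amino acid response list moved in both directions. Of its 33 genes tested, 3 were higher and 4 lower, beside 3.81% and 2.5% over all genes (median -0.10). Slc7a5, the leucine transporter LAT1, went from 5499, 5485 and 5819 to 2980.4, 3059 and 2927 (-0.91), and Slc1a5, a glutamine transporter, from 7213, 7268 and 6761 to 4233, 4318 and 4259 (-0.73). The cystine importer Slc7a11 fell by 0.97 and the arginine and lysine carrier Slc7a1 by 0.60. In the same list, Ddit4, an inhibitor of the growth kinase complex mTORC1, rose from 4408, 5774 and 5090.5 to 12377, 11169.9 and 13039 (1.27), and Eif4ebp1, a repressor of translation that mTORC1 holds in check, from 2016, 2427 and 2239 to 4295, 3843 and 4415 (0.91). None of the 4 genes given by library overlapped between 8h and 12h.

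Among regulators of the G1 phase of the cell cycle, 4 of 18 were higher at 12h and 0 lower, beside 3.81% and 2.5% over all genes (median 0.12). Cdkn1b (ENSMUSG00000003031, chr6:134920401-134925513, plus strand), the cyclin-dependent kinase inhibitor p27, was at 997, 1194 and 975 at 8h and 2554, 2254 and 2439 at 12h, 2.29-fold higher on the means with the groups apart (log2 fold change 1.20, SE 0.08, adjusted p = 3.03e-24, limma). Cdkn2d, the INK4-family inhibitor p19, went from 179.4, 209.9 and 228 to 508, 415 and 446 (1.15), and Ccng2, a cyclin linked to cell cycle arrest, from 657, 812 and 811 to 2310.1, 2071 and 2184 (1.53). The G1 cyclin Ccnd3, a partner of the kinases these inhibitors block, also rose (1808, 2013 and 2046 to 3149, 2887 and 3129, 0.64). Of the 42 genes of DNA replication, 0 were higher and 1 was lower. Of the 35 genes of G2 and mitosis, 0 passed, with a median of 0.18 and 32 above 0.

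Mxi1, Mxd1 and Mxd4 rose, while Myc did not pass the test. Their products compete with MYC for the partner MAX. Mxi1 (ENSMUSG00000025025, chr19:53310518-53375810, plus strand) was at 1434, 1591 and 1802 at 8h and 4494, 3823 and 3952 at 12h, 2.55-fold higher on the means with no overlap (log2 fold change 1.35, SE 0.07, adjusted p = 7.36e-32, limma). Mxd4 went from 1491, 1668 and 1511 to 2616, 2659 and 2665 (0.77), and Mxd1 from 371, 399 and 450.3 to 683, 604 and 657 (0.67). Myc itself, a driver of ribosome biogenesis, was at 3601, 3740.4 and 4057 at 8h and 3703, 3755 and 3563 at 12h. These values overlapped, and the log2 fold change was -0.05 with an SE of 0.07 (adjusted p = 0.697, limma).

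Of the 57 myeloid and progenitor transcription factors tested, 6 were higher and 1 was lower, beside 3.81% and 2.5% over all genes (median 0.16). Besides the 3 MAX partners, Nfil3, a basic leucine zipper repressor, rose by 0.86, Erg, an ETS factor of stem cells, by 0.73 and Id2, an inhibitor of helix-loop-helix factors, by 0.64. Sox4, a progenitor factor, fell from 1746, 2303 and 1826 to 1124, 1074 and 1228 (-0.77). The factors named whatever their values did not pass. Cebpa, which directs granulocyte and monocyte development, was at 12594, 15186 and 13282 and then 10964, 10424 and 11538 (log2 fold change -0.32). Gfi1, a repressor that promotes the neutrophil fate, was at 1451, 1412 and 1410.0 and then 1933, 2015 and 2086 (0.50), higher in each 12h library but short of the fold-change threshold. Egr2 overlapped between the times (81.9, 77.1 and 73.3 against 82.03, 87.2 and 66.8), its corepressor Nab2 was at a log2 fold change of 0.39, and Irf8, a factor of the monocyte lineage, was at 4.60 to 9.52 and 4.59 to 13.2, where differences were not detectable at this depth.

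Monocyte and macrophage markers moved in part. Of the 20 tested, 6 were higher at 12h and 0 lower, beside 3.81% over all genes, with a median of 0.45. Itgam (ENSMUSG00000030786, chr7:128062640-128118491, plus strand), the integrin CD11b, was at 899.9, 967 and 926 at 8h and 1613, 1499 and 1519 at 12h, 1.66-fold higher on the means with tight groups that did not overlap (log2 fold change 0.73, SE 0.06, adjusted p = 3.98e-19, limma). Adgre1, which encodes F4/80, went from 78.2, 57.8 and 75.2 to 151, 179.97 and 166 (1.23), and F13a1, a coagulation factor made by monocytes, from 248, 284 and 329 to 615, 576 and 619 (1.08). The chemokine receptors rose as well, Ccr2 from 337, 406 and 324 to 632, 703 and 641 (0.89) and Cx3cr1 from 1732, 1669 and 1765 to 2939, 2944 and 2890.1 (0.76). Lyz2, the lysozyme of macrophages and granulocytes, was the most abundant of the 6 (from 98119, 90415 and 97011 to 152736, 155113 and 145396, 0.67). None of these 6 genes overlapped between the times. Ly6c2, a surface marker of inflammatory monocytes, did overlap (14784, 12278 and 14654 against 13728, 13622 and 11795, log2 fold change -0.09). The rise was not particular to IL3, since over the same interval in GCSF 6 of the 20 were higher and 1 lower (median 0.31).

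Granule and receptor genes were mixed. Of 11 primary granule genes, 2 were higher and 0 lower. They were Clec12a (7.36, 19.3 and 23.8 to 65.3, 67.03 and 49.8, 1.92) and Ms4a3 (1085, 1043 and 1099 to 1697, 1622 and 1614, 0.61), neither of which is a granule enzyme. Mpo, the myeloperoxidase that defines these granules, was at 1892, 1985 and 2133 and then 2253, 2165 and 2286, a log2 fold change of 0.16 that did not pass. Of 18 secondary and tertiary granule genes, 3 were higher, led by Chil3, a chitinase-like protein, from 2135, 2023 and 2276 to 4299, 4266 and 3839 (0.95). Of 42 myeloid surface receptors, 7 were higher and 1 lower, beside 3.81% and 2.5% over all genes (median 0.08). Among those that rose were the inhibitory receptors Pirb (246, 215.2 and 231 to 452, 415 and 421, 0.89) and Clec4a2 (40.5, 34.3 and 46.6 to 96.1, 107 and 90.1, 1.26). Of 9 NADPH oxidase genes, 1 passed, the catalytic subunit Cybb (1.67), and of 17 promyelocyte and neutrophil markers also 1, Ms4a3.

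Of 11 progenitor markers tested, 2 were lower and 0 higher (median -0.18). Kit (ENSMUSG00000005672, chr5:75574916-75656722, plus strand) went from 3847, 3523 and 3736 at 8h to 2232, 2418 and 2055 at 12h, with no overlap (log2 fold change -0.73, SE 0.06, adjusted p = 4.43e-22, limma), and Sox4 was the other. Of 22 cytokine receptors, 1 was higher, the interleukin-1 decoy receptor Il1r2 (0.94), and 1 was lower, Csf2rb2, the beta chain used by the IL3 receptor, at 36379, 36214 and 37712 and then 22969, 23000.0 and 22436 (-0.69). Among marker lists of other lineages, Kit was the 1 of 8 mast cell and basophil genes tested that passed, 0 of 5 eosinophil genes did, 2 of 9 erythroid and megakaryocyte genes were higher (Klf1 0.78 and Epor 1.11), and 1 of 8 lymphoid and dendritic genes was lower (Ighm -1.64). The erythroid list summed to 1699.5 to 1723 normalized counts at 8h and 1364 to 1448 at 12h, and the lymphoid list to 42.8 to 69.01 and 37.05 to 60.6. Their part in the results was not tested.

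Signalling genes gave few calls in each list. Of 32 immediate-early and ERK feedback genes, 2 were higher and 4 lower, Egr1 included, beside 3.81% and 2.5% over all genes. Fosl1, a FOS-family factor, rose by 0.81 and Ier3 by 0.59, while Spry1, an inhibitor of receptor tyrosine kinase signalling, fell by 0.83, Nr4a2, an orphan nuclear receptor, by 0.68 and Dusp2, a phosphatase of MAP kinases, by 1.37. Of 17 STAT5 and STAT3 targets, Bcl3 rose by 0.63 and Spry1 fell. Of 30 NF-kB feedback, chemokine and cytokine genes, 1 rose and 1 fell. These were Tnfaip3, the feedback inhibitor A20, from 257, 252 and 251 to 580.4, 511 and 525 (1.08), and Tnf, the inflammatory cytokine, from 648, 551 and 571 to 404, 365 and 335 (-0.68). Of 38 interferon-stimulated genes, 3 rose and 0 fell (median 0.23), led by the antiviral factor Samd9l (2142, 2574 and 2405 to 5808, 5342 and 5679, 1.24) with Parp9 (0.68) and the RNA sensor gene Ddx58 (0.59).

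Of 27 BCL2 family and p53 target genes, 1 was higher, Bcl2a1a (1.25), and 3 were lower, all of them p53 targets. Aen, a nuclease, went from 3412, 3373 and 3264 to 1841, 1841 and 1858 (-0.86), Phlda3, an inhibitor of AKT, from 2149, 2553 and 2069 to 1214, 1211 and 1289.8 (-0.86), and the receptor Eda2r fell by 0.98. Of 32 chaperones, Hspa8, the constitutive HSC70, fell from 36992, 32756 and 35675 to 19603, 21595 and 19126 (-0.81), and its relative Hspa4l rose by 0.65. Of 18 clock genes, 4 were higher and 1 lower, beside 3.81% and 2.5% over all genes, with Per1, a core repressor of the clock, from 321, 305 and 310.4 to 936, 848 and 769 (1.44), Ciart at 0.61 and Nr1d2 at -0.61. Of 30 genes of iron, zinc and copper handling, Atp7b, the metal-binding metallothionein Mt2 (432, 378 and 442 to 1228, 1033 and 1007, 1.38) and Steap4 (1.39) rose.

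The remaining lists held 0 to 3 calls each. Of 26 genes of cholesterol synthesis and uptake, 0 passed (median 0.10), and of 21 genes of lipid efflux, 2 rose, the desaturase Scd2 (0.98) and the nuclear receptor Pparg (0.64). Of 38 lysosomal genes, the protease Lgmn rose by 0.61 and the proton pump subunit Atp6v0d2 fell by 0.59. Of 38 integrins and adhesion molecules, Itgam and Itgb5 (0.67) rose, and of 39 channels and pumps, the chloride exchanger Clcn3 (0.93) and the calcium release channel Itpr3 (0.75). Of 69 histone genes, 3 rose, H2bc21 (0.59), H3c13 (2.49) and H2ac12 (2.12), and of the 13 mitochondrially encoded transcripts 0 passed (median -0.02). H3c13 and H2ac12 had means under 50 normalized counts at both times, so the sizes of their changes are less certain. Mmp9, a gelatinase of tertiary granules, sat at the threshold (95.7, 94.2 and 92.3 against 162, 118.4 and 147.3, 0.58). Calls that were lost without a single library were those of Nkain1, Mrps18b, Lgmn, Atp6v0d2, Mmp9, Bcl3, Nr4a2, Ier3, Ddx58, Itpr3, Nr1d2, Ciart, H2bc21 and Pfkfb3, most of them close to the fold-change threshold.

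The same interval in GCSF shows where the step differed between the IL3 and GCSF cultures, which differ in cytokine, OHT dose and pre-treatment together. From 8h to 12h in GCSF, 391 genes (2.25%) were higher and 74 (0.425%) were lower by limma, in the fit over all libraries. A fit of the compared groups only gave 112 and 48, while edgeR gave 374 and 71. The counts also moved with single libraries, to 502 and 94 without GCSF-OHT 12h replicate 3, to 245 and 49 without GCSF-OHT 12h replicate 2 and to 449 and 63 without GCSF-OHT 8h replicate 1. Of the 663 genes that rose in IL3, 190 (28.7%) were also called higher in GCSF, where they made up 48.6% of that list, and 0 were called lower. That overlap was 246 without GCSF-OHT 12h replicate 3, 238 without GCSF-OHT 8h replicate 1 and 36 in the fit of the compared groups only. Of the 436 that fell in IL3, 13 (2.98%) were also called lower, 17.6% of the GCSF list, and 5 were called higher, and the 13 became 20, 15 and 2 under the same settings. The median GCSF change of the genes that rose in IL3 was 0.37 and that of the genes that fell was -0.01. The difference between the 2 steps was tested as an interaction. It was called higher in IL3 for 319 genes (1.83%) and lower for 509 (2.92%), or 272 and 460 without GCSF-OHT 12h replicate 3, 278 and 474 without GCSF-OHT 8h replicate 1, and 287 and 498 in the fit of the compared groups only.

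For ribosome biogenesis the step differed between the IL3 and GCSF cultures, and for glycolysis the call in GCSF depended on the fit. In GCSF, 15 of 25 glycolysis genes were higher and 0 lower (median 0.79), and the interaction was called for 1 of them. Without GCSF-OHT 12h replicate 3 or without GCSF-OHT 8h replicate 1, 16 were higher (medians 0.95 and 0.90). With edgeR and with DESeq2 15 were higher, whereas the fit of the compared groups only called 0 of the 25. Slc2a1 was at 7290.1, 3772 and 4163 at GCSF 8h and 14997, 15323 and 6899 at GCSF 12h. Replicate 3 of GCSF 12h lay below replicate 1 of GCSF 8h, so these groups overlapped, and the interaction of 0.36 did not pass (SE 0.23, adjusted p = 0.325, limma). It was -0.02 without that 12h library and 0.07 without that 8h library, and not called in either case. By contrast, 0 of 51 ribosome biogenesis genes were called in GCSF in either direction (median 0.10), and the interaction was lower in IL3 for 36 of 51, or 28 without GCSF-OHT 12h replicate 3 and 33 without GCSF-OHT 8h replicate 1. Rrp12 was at 547, 519 and 534 at GCSF 8h and 594, 649 and 761 at GCSF 12h. Its GCSF libraries thus lay below both IL3 groups at each time, and its interaction was -1.39 (SE 0.11, adjusted p = 2.57e-20, limma). As a share of reads, the list was at 0.333% to 0.365% at GCSF 8h and 0.340%, 0.333% and 0.415% at GCSF 12h. At GCSF 0h, before OHT, it was at 0.530% to 0.533%, so the list had already fallen in GCSF by 8h. From GCSF 4h to GCSF 8h the mean of Rrp12 went from 1160 to 533 and that of Grwd1 from 786 to 378. The interaction thus covers this interval alone, and a difference in timing was not tested.

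**Figure D4:**
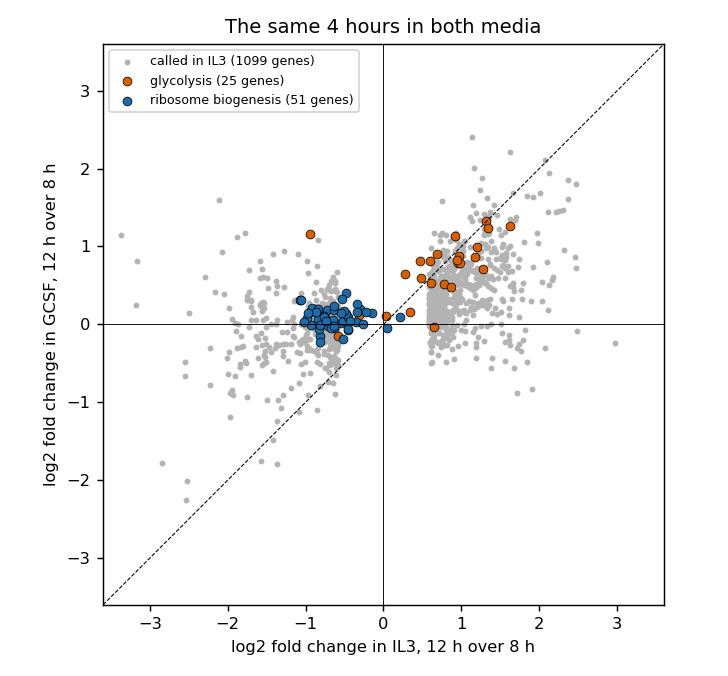
Log2 fold change from 8h to 12h in GCSF (vertical axis) against the same in IL3 (horizontal axis) for the 1099 genes called in IL3, with glycolysis and ribosome biogenesis genes coloured and a dashed line of equal change. Glycolysis genes lie along the line, while ribosome biogenesis genes lie to the left at GCSF values near 0.

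The interaction was also called for genes described above. Mxi1 was at 3720.1, 2949 and 3001 at GCSF 8h and 4359.8, 4289 and 2925 at GCSF 12h, overlapping, with an interaction of 1.10 (adjusted p = 4.64e-16, limma), or 0.92 without GCSF-OHT 12h replicate 3 and 1.00 without GCSF-OHT 8h replicate 1. Cdkn1b was at 2795, 2343 and 2719 and 3535, 3407 and 2361 in GCSF, above its IL3 level at 8h, with an interaction of 0.97, or 0.79 and 0.92 without those libraries. For the G1 list, 5 of 18 interactions were higher in IL3 and 0 lower, beside 1.83% and 2.92% over all genes. The 5 stayed at 5 without any single GCSF library named above. For the 20 monocyte and macrophage markers, the interaction was higher in IL3 for 1 and lower for 2. The 6 higher and 1 lower of these markers in GCSF became 4 and 1 without GCSF-OHT 12h replicate 3. They became 4 and 2 without GCSF-OHT 8h replicate 1. Mat2a, at 2601, 2987 and 2900.4 and 2471, 2366 and 3141 in GCSF, had an interaction of -1.14, and Slc1a5, at 1871, 1911 and 1959 and 2358, 2594 and 2979, one of -1.19.

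A few genes had steps of opposite sign. Pdcd4, an inhibitor of translation initiation, went from 445, 368 and 370.3 to 759, 715 and 731 in IL3 and from 1960.1, 1932 and 2050.1 to 1567, 1376 and 1434 in GCSF (log2 fold changes 0.90 and -0.44, the second short of the fold-change threshold), and the interaction was 1.34 (SE 0.10, adjusted p = 2.57e-20, limma). Dctd, a deaminase of thymidylate synthesis, fell in IL3 from 605, 586 and 564 to 284, 331 and 274 and rose in GCSF from 72.5, 93.8 and 85.6 to 144.9, 115.5 and 190.7 (interaction -1.79, SE 0.20, adjusted p = 2.47e-12, limma). Plxdc1, a plexin-domain membrane protein, fell in IL3 (322, 319 and 355 to 185.2, 185.5 and 180.2) and rose in GCSF (95.96, 82.7 and 64.7 to 151, 132 and 122.97), with an interaction of -1.60. The groups were separate within each medium for these 3 genes. The other genes named for the largest interaction were Trmt61a (-1.81) on the lower side and Pgbd1 (1.30), Tnfrsf14 (1.26), Ccng2 (1.23) and Ypel2 (1.22) on the higher side, and 3 gene models without a symbol on the lower side are counted and not named.

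Libraries outside the step show how it sits in the course. IL3-OHT 4h and 16h share no library with it. From 4h to 16h, 2136 genes (12.3%) were higher and 2047 (11.8%) were lower. Of the 663 genes that rose from 8h to 12h, 533 (80.4%) were called higher from 4h to 16h, 25.0% of that list, and 8 were called lower. Of the 436 that fell, 288 (66.1%) were called lower, 14.1% of that list, and 5 were called higher. At 168h against undifferentiated cells, 1782 genes (10.2%) were higher and 2641 (15.2%) lower. There, 302 (45.6%) of the genes that rose at the step were higher, 16.9% of that list, and 41 were lower, while 45.4% of those that fell were lower, 7.50% of that list, and 16 were higher.

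The 2 lists reached the step from different sides. Relative to undifferentiated cells, the median of the glycolysis list on the log2 scale was -0.96 at 4h, -0.86 at 8h, -0.03 at 12h and -0.08 at 16h. That of ribosome biogenesis was 0.66 at 4h, 0.74 at 8h, 0.16 at 12h and -0.03 at 16h. As shares of reads, glycolysis took 3.75% to 3.82% in undifferentiated cells, 2.08% to 2.22% at 4h and 2.99% to 3.26% at 16h, and ribosome biogenesis took 0.450% to 0.469%, 0.722% to 0.743% and 0.466% to 0.496%. Bnip3 was at 892, 679 and 586 at 4h and 10899, 11373 and 9404 at 16h. Its 4h libraries were below those of 8h, and its 16h libraries overlapped those of 12h. Rrp12 was at 1872, 1831 and 1891 at 4h and 785, 766 and 794 at 16h. The 12h to 16h change shares the 12h libraries with the step and was -0.50 for Rrp12 and -0.08 for Bnip3.

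**Figure D5:**
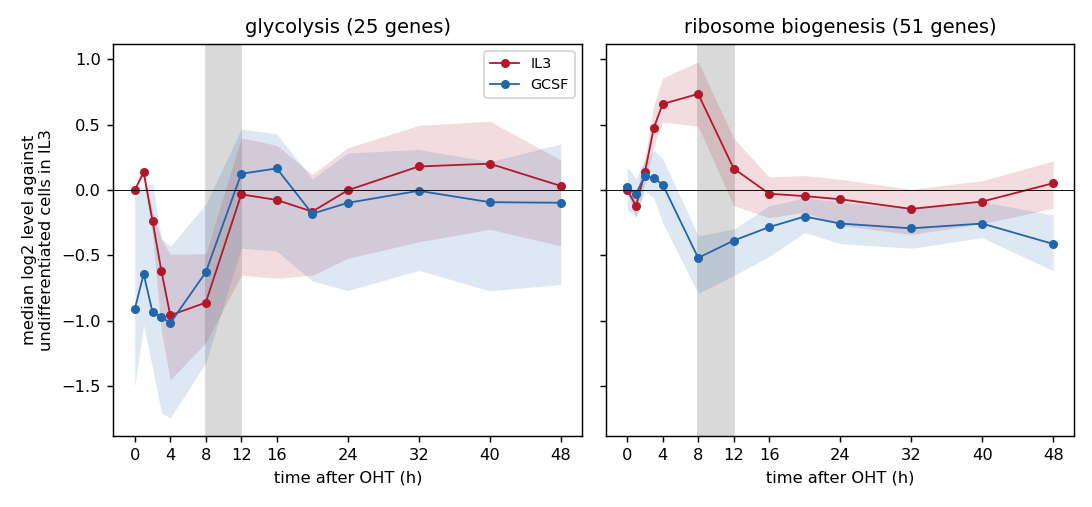
Median log2 normalized count of the glycolysis and ribosome biogenesis lists relative to undifferentiated cells (vertical axis) by hours after OHT (horizontal axis, 0 to 48 h), in IL3 and in GCSF, with bands for the quartiles over genes and the interval from 8h to 12h shaded. In IL3 the glycolysis median goes from -0.86 at 8h to -0.03 at 12h and the ribosome biogenesis median from 0.74 to 0.16.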

How the data were processed

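RNA-Seq of PUER cells was analysed. Per the methods, the authors quantified reads with Salmon on GRCm38 and divided them by DESeq2 size factors, and the deposited signal is the resulting normalized counts of 36255 genes. The strand setting of the counting is not given in the sources used here. Each library was placed by its label, and 0 value columns were left unmapped. All values were whole multiples of that of 1 read (100%, relative tolerance 1e-09), which gave whole reads for count tests. Log2(normalized count + 1) values were compared with limma 3.58.1 in R 4.3.3 by 1 linear model over 159 of 165 libraries (without IL3-OHT 96h and 144h), using trended empirical Bayes variances. Because 1 was added to each count, fold changes of low genes are understated. The 17414 genes reaching a normalized count of 5 in any library entered. Calls needed a Benjamini-Hochberg adjusted p, taken within each comparison, under 0.05, together with a log2 fold change past 0.58 in size.

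The script was tested on simulated data. Reads on genes ran from 14600246 to 33147945 over all libraries. In the 6 libraries of the step the chi-square per gene between replicates, 1 for counting error alone, was 3.29 to 7.05, so no library was a copy of another. Tried instead were a pseudocount of 0.5 or 5, no low-value filter, a mean minimum of 10 (12298 genes), upper-quartile scaling, each replicate left out, a fit of the compared groups only, a replicate block, and, on recovered reads of 12 libraries, edgeR 4.0.16 and DESeq2 1.42.0. Named genes were the 12 largest changes each way among called genes with a mean of at least 100 and no overlap, up to 6 called genes per list with a mean of at least 50, the 6 largest interactions each way, and a preset set. Genes named outside this rule were chosen after their values were seen, and some genes within it are not reported here. The members, the 38 lists and the tests were chosen with earlier results of these data known. Promoters were matched by symbol to RefSeq (GRCm38.p6), where 11654 of the 17414 tested genes had a window.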

Additional observations from a re-analysis of the deposited data

Results flagged for a closer look

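The step from 8h to 12h differed between IL3 and GCSF by the interaction term of limma for 319 genes higher in IL3 and 509 lower. The values below are the IL3 step minus the GCSF step on the log2 scale, for genes named here whose interaction passed the Benjamini-Hochberg adjusted threshold. Groups of 3 libraries are too small for the gap test of single values, which was not run.

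Ribosome biogenesis genes had negative differences, with Rrp12 (-1.39), Grwd1 (-1.38), Tsr1 (-1.06), Polr1b (-1.06), Pwp2 (-1.12) and Nop56 (-1.10). Other genes with positive differences were Tnfrsf14 (1.26), Abhd18 (1.13), Ccng2 (1.23), Cdkn1b (0.97), Cdkn2d (1.03), Mxi1 (1.10), Mxd4 (0.95), Mt2 (0.91), Hspa4l (0.83), Pdcd4 (1.34), Ypel2 (1.22) and Sat1 (0.78). Other genes with negative differences were Trmt61a (-1.81), Fbp1 (-1.02), Sim2 (-1.05), Mat2a (-1.14), Egr1 (-1.37), Rpl12 (-0.65), Mrps18b (-0.72), Slc7a5 (-1.05), Slc1a5 (-1.19), Spry1 (-1.03), Nr4a2 (-0.67), Tnf (-0.92), Hspa8 (-0.75), Phlda3 (-0.91), Aen (-1.07), Kit (-0.64), Dctd (-1.79), Plxdc1 (-1.60), Srm (-1.42), Shmt1 (-1.26) and Fpgs (-1.23).

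The calls of Mgarp (0.75), Pgbd1 (1.30), Bnip3 (0.95), Gys1 (0.74), Dixdc1 (0.97), Ddit4 (0.62), Lgmn (0.72), Clec12a (1.19), Samd9l (0.69), Sox4 (-0.63), Cx3cr1 (0.59), Egln3 (0.59), Ndrg1 (0.62), Pygl (0.62) and Polr3d (-0.80) depended on single GCSF libraries. Without GCSF-OHT 12h replicate 3 the interaction calls of Bnip3, Ddit4, Dixdc1, Egln3, Gys1, Mgarp, Ndrg1, Pgbd1, Polr3d, Pygl, Samd9l and Sox4 were lost. Without GCSF-OHT 8h replicate 1 those of Bnip3, Cx3cr1, Ddit4, Dixdc1, Egln3, Gys1, Lgmn, Mgarp, Ndrg1, Pygl and Samd9l were lost, and without GCSF-OHT 8h replicate 3 those of Clec12a and Ddit4. Csf1r (-2.97) was at 3.21 to 8.57 and 2.12 to 6.17 normalized counts in IL3 and 0.874 to 4.14 and 11.5 to 15.6 in GCSF, so that most of these values lie at or near the floor of 3 reads, and the size of its difference depends on the pseudocount.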

How the results depend on the processing

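In IL3, the 663 genes higher and 436 lower kept within 1.5 times of these counts under each alternative run. Without single IL3 libraries they were 607 to 696 and 364 to 412, with edgeR's quasi-likelihood test 642 and 397, with DESeq2's Wald test 601 and 344, and with the replicate number as a block 457 and 324. Of the 1099 calls, 63.4% (replicate block) to 99.4% (upper-quartile scaling) were also called under an alternative. In each alternative 28 ribosome biogenesis genes were lower, and 15 to 17 glycolysis genes were higher. The replicate numbers did not pair the wells, since same-numbered deviations from the group means correlated at -0.16, -0.43 and -0.33 over 10597 genes.

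The GCSF counts moved more. A fit of the compared groups only gave 112 genes higher and 48 lower, and leaving out single GCSF libraries gave 245 to 502 and 49 to 94, the lowest of each without GCSF-OHT 12h replicate 2. The replicate block gave 0 and 0 in limma, with 4047 genes at an unadjusted p under 0.05, against 374 and 71 with edgeR and 336 and 56 with DESeq2. The cause was not tested.

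Of the named genes called in IL3, 92 were called under all 15 alternatives of the step, 22 lost the call under 1 or more, and 0 changed sign. Log2 fold changes of calls lost without IL3-OHT 12h replicate 1 were Nkain1 (-1.11), Mrps18b (-0.57), Lgmn (0.57), Mmp9 (0.49), Bcl3 (0.57), Nr4a2 (-0.57), Ier3 (0.56), Ddx58 (0.57) and Pfkfb3 (-0.57), without replicate 2 Ddx58 (0.56), and without replicate 3 Atp6v0d2 (-0.50), Mmp9 (0.55), Ier3 (0.58), Nr1d2 (-0.49), H2bc21 (0.47) and Pfkfb3 (-0.55). Those lost without IL3-OHT 8h replicate 1 were Mrps18b (-0.55), Ier3 (0.57), H2bc21 (0.50) and Pfkfb3 (-0.56), without replicate 2 Lgmn (0.57), Ier3 (0.58), Ddx58 (0.54), Itpr3 (0.60) and Ciart (0.56), and without replicate 3 Mmp9 (0.57). The replicate block ended the calls of Dixdc1, Clec12a, Mmp9, Il1r2, Bcl3, Nr4a2, Sox4, Itgb5, Nr1d2 and Stc1, edgeR and DESeq2 those of Atp6v0d2 and Pfkfb3, DESeq2 that of Fosl1, a pseudocount of 0.5 that of Serpinb9g, a pseudocount of 5 those of Atp6v0d2, Mmp9, Ddx58, H2bc21 and Pfkfb3, and upper-quartile scaling that of Mmp9. Genes near 3 reads, such as Irf8 and Csf1r in IL3, are below what this depth can compare.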

Other observations

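Genes known as targets of the hypoxia-inducible factors (HIF) were written down as a list after the values were seen, and their counts are a description. Of 28 tested, 23 were higher at 12h in IL3 and 0 lower, beside 3.81% and 2.5% over all genes, with a median of 1.19. As a share of reads, the list took 0.865% to 0.904% in undifferentiated cells in IL3. That share was 0.338% to 0.404% at 8h and 0.783% to 0.886% at 12h, so the rise brought it back near its starting level. Ndrg1, a stress-responsive gene, was at 4192, 5311 and 5629 at 8h and 16738, 14464 and 15124 at 12h (log2 fold change 1.62), and Vegfa, the growth factor of blood vessels, at 5738, 7207 and 6623 at 8h and 14984, 12633 and 13799.9 at 12h (1.08). Stc1, a secreted glycoprotein, was at 11.04, 20.3 and 28.6 at 8h and 97.9, 89.98 and 83.7 at 12h (2.22), at lower counts. The groups were separate for each of these 3. Car9, a carbonic anhydrase often used to mark hypoxia, did not pass (1655, 1860.0 and 1875 against 2424, 2064 and 2307, 0.33). In GCSF, 20 of the 28 were higher and 0 lower (median 0.77), or 23 without GCSF-OHT 12h replicate 3 (median 1.06), 23 without GCSF-OHT 8h replicate 1 (median 0.96), 21 with edgeR and 0 in a fit of the compared groups only. The interaction was higher in IL3 for 8 and lower for 0, or 2 and 3 without GCSF-OHT 12h replicate 3, 3 and 1 without GCSF-OHT 8h replicate 1, and 2 and 0 in the fit of the compared groups only.

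Of 11 factors of the HIF pathway, also listed afterwards, 4 were higher and 1 lower, beside 3.81% and 2.5% over all genes. Arnt2, a partner of the HIF alpha subunits, was the one that fell (-0.84), and Hif3a, a member of the HIF family, rose (0.79). The prolyl hydroxylases Egln3 and Egln1, which mark HIF for destruction, rose, Egln3 from 9503, 11986 and 12025 to 31282, 26709 and 27801 (1.36) and Egln1 from 3864, 5284 and 4772 to 12463, 10581 and 11969.6 (1.34), as did Vhl, which tags HIF after that mark (0.65). Transcripts of the factors themselves overlapped between the times, Hif1a at 3233, 3444 and 3346 at 8h and 3336, 3324 and 3448 at 12h and Epas1 at 3038, 2685 and 3028 at 8h and 2840.2, 2892 and 2610.3 at 12h. Oxygen was not measured in the data used here.

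Genes of glycogen metabolism moved in part. Of 16 genes listed afterwards, 4 were higher, Gys1 among them, and 0 lower, beside 3.81% and 2.5% over all genes (median 0.25). Pgm1, which feeds glucose phosphate into glycogen, went from 1917, 2138 and 2380.1 to 6463, 5919 and 6045 (1.52), the branching enzyme Gbe1 from 1828, 1948 and 2034 to 3499.9, 3179.7 and 3272 (0.78), and Pygl, which breaks glycogen down, from 4505, 5166 and 5515 to 12311, 11123 and 11884 (1.22). The 4 that rose thus included genes of synthesis and of breakdown.

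Of 26 genes of polyamine, methionine and folate metabolism listed afterwards, 10 were lower and 1 higher, beside 2.5% and 3.81% over all genes (median -0.34), with Mat2a among the 10. Srm, the spermidine synthase, went from 5029, 5135 and 4967 to 2886, 2764 and 2638 (-0.87), Fpgs, which retains folates in the cell, from 912, 910.2 and 898 to 458, 457 and 483 (-0.96), and Shmt1, a serine hydroxymethyltransferase, from 879.7, 921 and 855 to 529, 586 and 578 (-0.65). Sat1, which starts polyamine breakdown, was the one member that rose (4686, 4772 and 4940.1 to 8928, 8561 and 8933, 0.88). The list leaves out Aldh1l2, the enzyme of folate metabolism named above, whose mean in IL3 rose from 304 at 8h to 922 at 12h. In GCSF 4 of the 26 were higher and 0 lower (3 and 0 without either of those GCSF libraries), and the interaction was lower in IL3 for 11 and higher for 2 (10 and 2 without either library). Of 19 RNA polymerase III genes, also listed afterwards, 3 were lower, beside 2.5% over all genes, with Polr3d from 315, 323 and 350.3 to 171.1, 149.7 and 169.6 (-1.01). Pgm1, Fpgs and Shmt1 overlap annotated neighbours.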
